A study of Mus musculus with 2 samples.

Results

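The genes described here make up the MHC class II antigen presentation pathway of the mouse, measured by single-cell RNA sequencing in healing skin. The members were the 10 rows of the count matrices named *H2-Aa*, *H2-Ab1*, *H2-Eb1*, *Cd74*, *H2-DMa*, *H2-DMb1*, *H2-DMb2*, *H2-Oa*, *H2-Ob* and *Ciita*, of 31053 genes in all, and each symbol had 1 row. The rule used only gene names. Class II molecules display peptides from the endosomes of a cell to CD4 T cells. Their expression is restricted mainly to professional antigen-presenting cells, of which the skin holds Langerhans cells in the epidermis, dendritic cells in the dermis and macrophages that differ widely in class II level. Interferon gamma can induce the pathway in other cells through *Ciita*.

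The series held 2 libraries of live (7AAD-negative) cells from back-skin wounds of C57BL/6 mice of 7 to 9 weeks, collected on day 5 after wounding by cutting out wound bed and skin with a 10 mm punch. Both libraries are labelled *Mrc1-DTR*, a line in which the diphtheria toxin receptor is placed under the promoter of *Mrc1*, the gene for the mannose receptor CD206. One library is labelled PBS and the other Diphtheria toxin (DTX), whereas the study's methods describe the control as wild-type mice given the toxin. The cell numbers given by the study equal the barcodes in the files with the conditions exchanged. Each library pooled 3 mice and each condition had 1 library, so no difference between the libraries could be tested against the spread between mice. All intervals below are 95% intervals that cover counting error only.

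The files held 12058 barcodes labelled PBS and 11031 labelled DTX. With at least 500 genes, at most 6% mitochondrial UMIs (unique molecules counted) and called doublets left out, 7944 cells with 81235634 UMIs and 6613 cells with 54872675 UMIs remained, at medians of 9580 and 7286 UMIs a cell. The libraries shared 37 barcodes, 13 of them among the cells kept. *Xist* had 6 and 5 UMIs in the kept cells and *Ddx3y*, a Y-linked gene, 10322 and 6827, so neither library stood apart in sex. *Mrc1*, the gene whose cells the toxin targets, had UMIs in 20.5% of kept cells labelled PBS and 49.1% of those labelled DTX. Its level in macrophage-like cells was 489.9 CPM (UMIs of a gene in 1000000 UMIs of the same cells) labelled PBS and 433 CPM labelled DTX. With these cells brought to equal depth, 52.6% of macrophage-like cells labelled PBS and 44.1% of those labelled DTX had a *Mrc1* UMI. Within macrophage-like cells *Mrc1* was thus somewhat lower labelled DTX, whereas its share of all kept cells was higher. The share of all kept cells also depends on how many of them were macrophage-like. A loss of *Mrc1*-expressing cells was not tested. *Mrc1* RNA alone does not show which library is which, so every direction below is that of the labels and the libraries are called by them. Macrophage-like cells made up 21.4% of kept cells labelled PBS and 66.6% of those labelled DTX, and fibroblast-like cells 38.6% and 9.92%. In a pool of all cells, fewer cells of a type and less RNA per cell cannot be told apart, so the members were described within cell classes.

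Classes came from clusters built without the members and without the other genes of the pathway, and were named from marker lists. All 12 macrophage markers, led by *Lyz2* and *C1qa*, were raised in the macrophage-like cells. The list summed there to 18939.7 CPM labelled PBS and 14078 CPM labelled DTX. The 12 dendritic markers, led by *Ccr7* and *Ccl22*, summed to 3384 and 3635 CPM in the dendritic-like cells and to 46.5 and 39.4 CPM in the macrophage-like cells. The macrophage list stood at 5536 and 3457 CPM in the dendritic-like cells, above the dendritic list labelled PBS, and its part in their ratios was not tested. The Langerhans list (6 markers, *Cd207* foremost) reached 19632 and 18888 CPM in the Langerhans-like cells. Cluster 8 raised 8 of 12 macrophage markers but none of them led it, so it was left unnamed. *Cst3*, *Acp5* and *Stmn1* were among its leading genes.

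Of the members, 8 lie within 224 kb of chromosome 17 (34092340-34316674, GRCm38, the build of the files), the mouse major histocompatibility complex. *Ciita* lies on chromosome 16 (10480059-10528418, forward strand). RefSeq promoter windows (GRCm38.p6, 250 bases before to 50 after the start site) were at hand for 7 members, 1 of them with a pair of windows. Class II promoters are known for an X box and a Y box, which the RFX and NF-Y complexes bind and which *Ciita* acts through. The letters CCTNGNNAC, fixed for the X box, stood in 2 of the 8 windows on either strand, against 15.8% of all 32851 windows. ATTGG, fixed for the Y box and part of TGATTGG, stood in 7 of 8, against 37.4%. After the sequences were seen, 2 further spellings were counted. CTNGNAAC stood in 4 of 8 windows against 13.2% of all, and TGATTGG in 6 of 8 against 7.82%. CTNGNAAC followed by TGATTGG 20 to 30 letters on, on the sense strand, stood in 8 windows of all 32851. Of these, 4 belonged to members (*H2-Aa*, *H2-Eb1*, *H2-DMb1* and *H2-Ob*) and 4 did not. Both spellings came after these sequences were seen, and the span takes in the members' own gaps. The counts of the pair are therefore no test of how specific it is to members. These matches are letters in a window, not binding sites.

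The stretches of 3 members follow, shown because their pairs of letters lie before the annotated gene. Both matches are in capitals, CTNGNAAC first and TGATTGG second. The *H2-Ob* stretch is chr17:34238801-34238864 on the forward strand, *H2-Aa* is chr17:34287855-34287918 on the reverse strand and *H2-Eb1* is chr17:34305761-34305824 on the forward strand. The letters between the matches number 23, 26 and 25.
H2-Ob: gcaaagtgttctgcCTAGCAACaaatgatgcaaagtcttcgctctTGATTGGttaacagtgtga
H2-Aa: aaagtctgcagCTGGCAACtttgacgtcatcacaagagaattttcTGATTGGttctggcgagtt
H2-Eb1: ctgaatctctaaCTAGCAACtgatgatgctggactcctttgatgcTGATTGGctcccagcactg

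*H2-Aa* and *H2-Ab1* encode the chains of the peptide-presenting molecule I-A, and *H2-Eb1* encodes the beta chain of I-E. The gene for the alpha chain of I-E (*H2-Ea* or *H2-Ea-ps*) had no row in the files, so *H2-Eb1* RNA alone does not show I-E at the surface. *Cd74* encodes the invariant chain, which fills the groove until peptide is loaded. The summed UMIs of these 4 genes are called the class II sum below. In the library labelled PBS the class II sum was 79499.8 CPM in Langerhans-like, 60551 in dendritic-like, 54662 in cluster 8, 39870.1 in macrophage-like and 8754 in neutrophil-like cells. Labelled DTX, the same order held with 82981, 61808, 35657, 17255 and 4389 CPM. No neighbours in that order had overlapping counting intervals. The other classes stood below these, among them the NK- or T-like cells (558 and 1134 CPM), epithelial-like cells (334 and 732) and fibroblast-like cells (232 and 737). The proportion of *Cd74* was similar in the antigen-presenting classes, whereas that of *H2-Aa* was lower in Langerhans-like cells. *H2-Aa* took 22.5 and 21.4 of every 100 class II sum UMIs in macrophage-like cells and 21.1 and 20.0 in dendritic-like cells. In Langerhans-like cells it took 17.6 and 17.5, below *H2-Ab1* at 18.2 and 18.7. *Cd74* took 45.7 and 48.2 of every 100 class II sum UMIs in macrophage-like cells, 47.4 and 47.0 in dendritic-like cells and 49.2 and 48.2 in Langerhans-like cells. Proportions varied more where UMIs were few, with *H2-Ab1* at 14.0 and 22.9 of every 100 in endothelial-like cells and *Cd74* at 57.4 and 55.4 in mast-like cells. UMIs count captured 3′ ends and were not divided by gene length, so these proportions describe captured molecules and not protein. *Cd74*, like *Ciita*, lies apart from the members on chromosome 17, and is on chromosome 18 (60803848-60812652, forward strand).

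**Figure D1:**
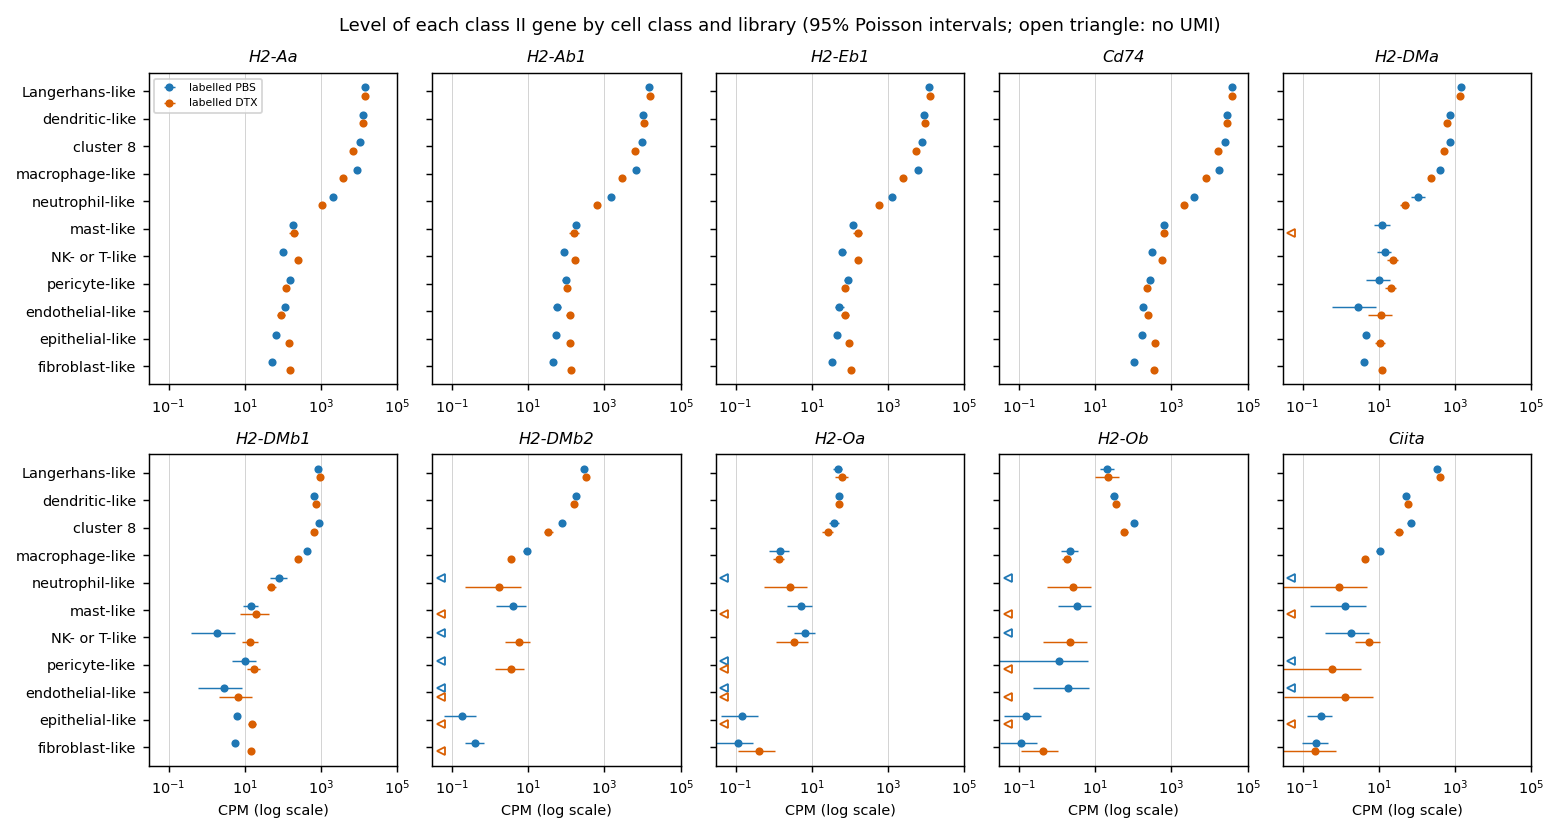
Level of each member in CPM (log scale) by cell class, with the library labelled PBS in blue and that labelled DTX in orange. Bars are 95% Poisson intervals and open triangles mark no UMI. The presenting chains and *Cd74* stepped down from Langerhans-like to macrophage-like cells, whereas *H2-DMb2*, *H2-Oa* and *H2-Ob* dropped sharply between dendritic-like and macrophage-like cells. *Ciita* dropped sharply from Langerhans-like to dendritic-like cells and again to macrophage-like cells.

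The presenting chains were lower in macrophage-like cells of the library labelled DTX. *H2-Aa* stood at 8961 CPM (8896 to 9025) labelled PBS and 3687 CPM (3665 to 3709) labelled DTX, *H2-Ab1* at 6642 and 2828 CPM, and *H2-Eb1* at 6055 and 2417 CPM. *Cd74* stood at 18213 and 8323 CPM. The log2 ratios of DTX over PBS, with 1 CPM added to both levels, were -1.28 (-1.29 to -1.27) for *H2-Aa*, -1.23 (-1.25 to -1.22) for *H2-Ab1*, -1.32 (-1.34 to -1.31) for *H2-Eb1* and -1.13 (-1.14 to -1.12) for *Cd74*. All 4 genes were thus 2.19- to 2.50-fold higher labelled PBS, far beyond counting error. For the class II sum the ratio was -1.21. RNA of 6 fibroblast genes, led by collagens, stood at 889 and 183 CPM in the same macrophage-like cells, and its part in these ratios was not tested. The class I pathway genes, by contrast, summed to 8693 and 7606 CPM.

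*H2-DMa*, *H2-DMb1* and *H2-DMb2* encode H2-DM, which removes the invariant chain fragment and edits the bound peptides. In macrophage-like cells *H2-DMa* stood at 416 and 239 CPM and *H2-DMb1* at 433 and 253 CPM, with log2 ratios of -0.79 (-0.85 to -0.74) and -0.78 (-0.83 to -0.72). These intervals lay above those of the presenting chains and *Cd74*. *H2-DMb2* was rare there, with 75 UMIs labelled PBS and 107 labelled DTX, and its ratio of -1.14 (-1.52 to -0.76) overlapped them. *Ciita*, the transactivator that switches class II genes on, had 89 and 133 UMIs (10.7 and 4.41 CPM) and a ratio of -1.12 (-1.47 to -0.76). *H2-Oa* and *H2-Ob* encode H2-DO, a brake on H2-DM known mainly from B cells and some dendritic cells. With 12 and 41 UMIs and 18 and 54 UMIs, their intervals, -0.65 to 0.51 and -0.73 to 0.36, held 0.

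Counted over members with at least 50 UMIs in both libraries together, all 10 were tested in macrophage-like cells and 6 were lower labelled DTX by more than 1 on the log2 scale. Of all 10113 genes tested there, 3.45% were lower by that much and 1.64% higher. The median log2 ratio was -1.12 over the members and 0.05 over all genes. In cluster 8 all 10 ratios were below 0 with a median of -0.62, against 0.14 over all genes, and 2 of 10 (*H2-DMb2* and *Ciita*) passed -1, where 1.79% of 5376 genes did. The cells of cluster 8 went into the dendritic subclusters described below, and the part of that mix in these ratios was not tested.

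In dendritic-like and Langerhans-like cells, each taken as a whole class, the members differed little between the libraries. *H2-Ab1* stood at 10266 CPM labelled PBS and 10795 CPM labelled DTX in dendritic-like cells, and at 14434 and 15477 CPM in Langerhans-like cells. None of 10 members in dendritic-like cells passed 1 in either direction, where 2.44% of 7158 genes did, and none of 9 in Langerhans-like cells, where 3.39% of 3833 genes did. Member medians were 0.06 and 0.12 beside 0.06 and 0.03 over all genes. The class II sum ratios, 0.030 (0.021 to 0.039) and 0.062 (0.044 to 0.079), carry counting error but not the spread between mice. The first turned below 0, to between -0.0071 and -0.060, when called doublets were kept, when the clustering was finer, or when the median of all genes was set to 0. The second was -0.0010 when the highest 8% of doublet scores were left out of both libraries. *H2-DMa* had the lowest ratio in both classes, -0.25 (-0.33 to -0.17) and -0.13 (-0.27 to 0.00). The mix of dendritic subclusters, cut from dendritic-like cells and cluster 8 together, differed between the libraries. Subcluster 0, whose best marker list was that of macrophages, had 197 cells labelled PBS and 122 labelled DTX, and subcluster 1 had 70 and 170. Within subclusters the class II sum was lower labelled DTX in 3, higher in 1 and within counting error in 2. The part of this mix in the dendritic-like ratios was not tested.

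**Figure D2:**
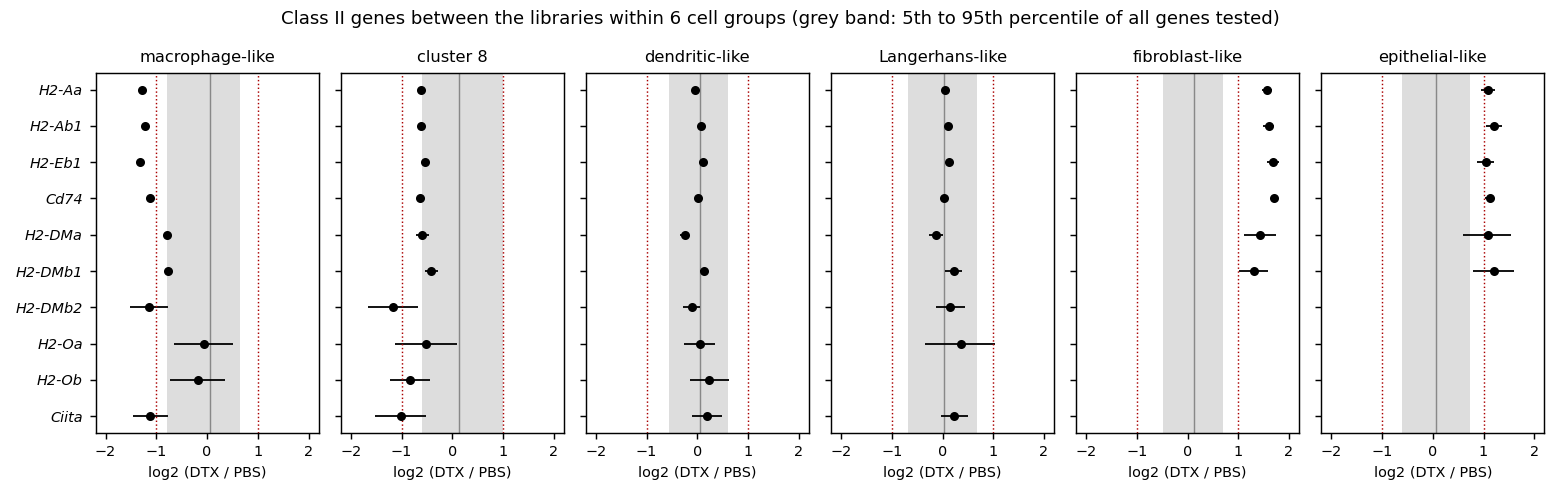
Log2 ratio of the library labelled DTX over that labelled PBS for each member with at least 50 UMIs, in 6 cell groups, with 95% counting intervals. The grey band spans the 5th to 95th percentile of all genes tested, the grey line is their median and dotted lines mark -1 and 1. In macrophage-like cells 6 members lay below -1, the H2-DM genes *H2-DMa* and *H2-DMb1* at the edge of the band and the H2-DO genes inside it, whereas all members shown lay inside the band in dendritic-like and Langerhans-like cells and right of it in fibroblast-like and epithelial-like cells.

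The macrophage-like cells fell into 7 subclusters, and their shares differed sharply between the libraries. Subclusters 0, 1 and 4, led by *Arg1* and *Cxcl3*, by *Hp* and *Vcan*, and by *Ccl7* and *Ccl2*, held 6.95% of the macrophage-like cells labelled PBS and 80.0% of those labelled DTX. Because each came mostly from 1 library, such a subcluster may be that library and not a cell state. Subcluster 3 had 819 cells labelled PBS and 130 labelled DTX, and *H2-Eb1*, *H2-Aa* and *C1qa* were among its leading genes although class II genes took no part in the clustering. Its class II sum was 49378 and 42969.6 CPM, beside 28346 and 10812 CPM in subcluster 0 and 21835 and 10441 CPM in subcluster 1. The highest class II sum was in subcluster 5 (65327 and 43829 CPM), led by *Il1r2*, *Pgf* and *Ramp3*. In subcluster 5 the 12 macrophage markers summed to 12794 and 11513 CPM and the dendritic list to 36.1 and 90.7 CPM. The subcluster was left unnamed because too few markers of any macrophage subset were raised. *Il1r2* and *Pgf* were also among the leading genes of dendritic subcluster 1, and *Ramp3* among those of the dendritic-like cells.

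Within all 7 subclusters the class II sum was lower labelled DTX, by amounts that differed. The log2 ratio was -0.15 (-0.17 to -0.13) in subcluster 2, led by *Ccl8* and the heat shock genes *Hspa1a* and *Hspa1b*, and -0.20 (-0.22 to -0.19) in subcluster 3, which together held most macrophage-like cells labelled PBS. In subclusters 4, 5 and 6, the last led by interferon-induced genes such as *Cxcl10* and *Rsad2*, it was -0.80, -0.58 and -0.67. Subclusters 0 and 1 gave -1.39 and -1.06, from only 23 and 44 cells labelled PBS. When the levels labelled DTX were averaged at the subcluster shares labelled PBS, the class II sum was 32970.1 CPM and the ratio -0.27, beside the observed -1.21. When the levels labelled PBS were averaged at the shares labelled DTX, the ratio was -0.86. The subclusters were built on these same cells, so both averages are descriptions.

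**Figure D3:**
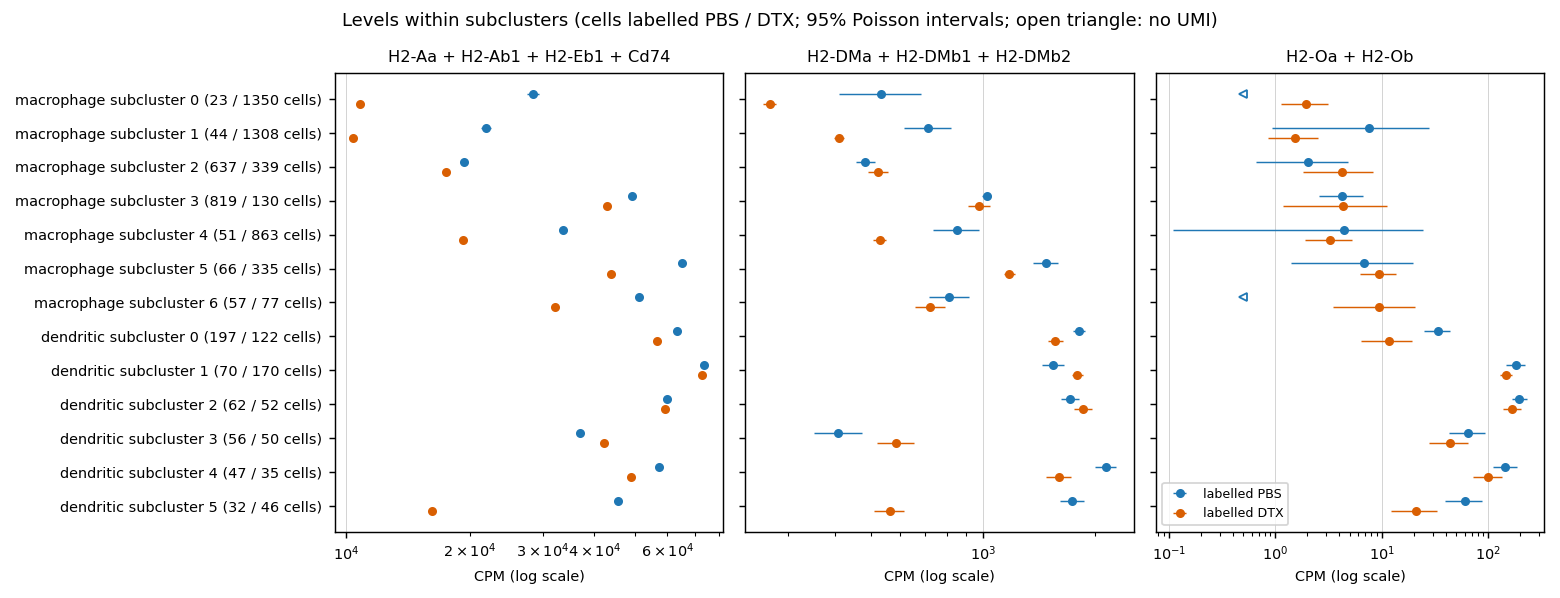
Class II sum (left), summed H2-DM genes (middle) and summed H2-DO genes (right) in CPM (log scale) in 7 macrophage and 6 dendritic subclusters, by library, with the cells of each library in brackets. Bars are 95% Poisson intervals and open triangles mark no UMI. H2-DO RNA was highest in dendritic subclusters 1, 2 and 4, whereas the class II sum of macrophage subclusters 3, 5 and 6 lay within the range of the dendritic subclusters in each library. Labelled DTX, dendritic subcluster 5 was the low end of that range.

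Single macrophage-like cells differed across most of the distribution. After each cell was thinned to 2000 UMIs, macrophage-like cells held a median of 82 class II sum UMIs labelled PBS (quartiles 32.8 and 116, 1476 cells) and 11 labelled DTX (quartiles 1 and 53, 4270 cells). Shallower cells, 221 and 132, were left out. At least 50 class II sum UMIs were found in 67.8% and 26.5% of these cells. A class II sum UMI was found in 94.9% (Clopper-Pearson interval 93.6 to 95.9) and 84.4% (83.3 to 85.5), or in 97.1% and 94.4% without thinning. In fibroblast-like cells, which are not professional antigen-presenting cells, the thinned shares were 23.8% and 27.0%. Their median depths before thinning were 11176 and 13959.5 UMIs, against 4706 and 6723.5 in macrophage-like cells. Dendritic-like cells held medians of 123 and 132 and Langerhans-like cells 164 and 173.5, with broad overlap of the libraries. Cluster 8 held 112 labelled PBS and 89 labelled DTX, where 13.9% of cells had no class II sum UMI. Its leading genes *Cst3* and *Ncoa7* also led dendritic subcluster 2, and *Acp5* and *Stmn1* led dendritic subcluster 5. Medians were 121.5 and 114.5 in subcluster 2, and 90 and 7 in subcluster 5, where 26.1% of cells labelled DTX had none. The part of each subcluster in the values of cluster 8 was not tested.

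**Figure D4:**
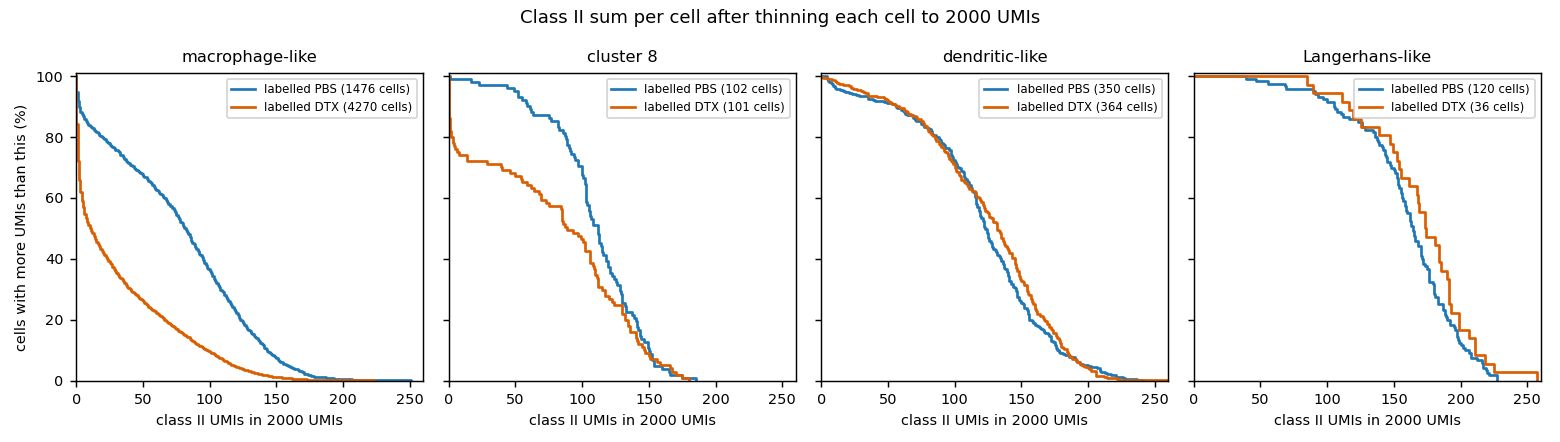
Share of cells (percent) with more class II sum UMIs than the value on the horizontal axis, after each cell was thinned to 2000 UMIs, for 4 cell groups and both libraries. The curves of macrophage-like cells lay apart, with medians of 82 labelled PBS and 11 labelled DTX, and those of dendritic-like cells nearly coincided.

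Within macrophage-like cells the presenting chains varied together from cell to cell. Pearson correlations of thinned UMIs on a log2 scale between *H2-Ab1* and *H2-Aa* were 0.91 labelled PBS and 0.92 labelled DTX. They were taken over 1476 and 4270 cells that share their library. For *H2-Ab1* and *H2-DMb1* the correlations were 0.45 and 0.56, and for *H2-Ab1* and *Mrc1* -0.12 and 0.07, both weak in sparse counts. After thinning, cells with a *Mrc1* UMI held a median of 77.5 class II sum UMIs labelled PBS, beside 86 in cells without one. Labelled DTX, the corresponding medians were 18 and 6. Both groups had lower medians labelled DTX, although a cell with no *Mrc1* UMI at this depth may still hold *Mrc1* RNA.

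*Ciita* was spread differently from the genes it activates. Langerhans-like cells, 1.54% of kept cells labelled PBS, carried 55.1% of that library's *Ciita* UMIs (426 of 773), and 28.0% labelled DTX (166 of 593), where they were 0.56% of cells. Macrophage-like cells carried 47.2% and 59.7% of the class II sum UMIs but only 11.5% and 22.4% of the *Ciita* UMIs. The level of *Ciita* was 338 CPM (307 to 372) in Langerhans-like cells labelled PBS and 397 CPM (339 to 463) labelled DTX, 51.2 and 58.3 CPM in dendritic-like cells and 68.4 and 33.2 CPM in cluster 8. Labelled PBS, the intervals of cluster 8 and dendritic-like cells overlapped. A *Ciita* UMI was found in 51 of 120 and 18 of 36 thinned Langerhans-like cells, 6.57% and 8.52% of dendritic-like cells, and 2.17% and 0.609% of macrophage-like cells. Without thinning these shares were 84.4% and 89.2%, 20.8% and 29.4%, and 4.36% and 2.25%. Of fibroblast-like cells, 1 of 2983 labelled PBS had one (0.0335%). The level of *Ciita* per macrophage-like cell was near that of single UMIs, so no cell-by-cell order was read from it.

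Over 34 groups (classes or subclusters of at least 50 cells in a library, which share libraries and cells), the gene whose log2 level was most like that of *H2-Ab1* outside the pathway was *Cd86*, a costimulatory ligand of antigen-presenting cells (Pearson r 0.97), followed by *Synj1*, *Spi1*, *Rassf4* and *Gosr2* (0.94, 0.93, 0.93 and 0.93). *Spi1* encodes the myeloid transcription factor PU.1. For *Ciita* the order was *Grk3*, *Lactb*, *Tmco3*, *Ikbkb* and *Syngr2* (0.90, 0.87, 0.86, 0.86 and 0.86). Among members, *H2-Ab1* was closest to *H2-Eb1* (1.00) and *Ciita* to *H2-DMb2* (0.92). These are descriptions over 10231 genes ranked.

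Among the classes, *H2-Oa* was highest in dendritic-like cells (51.2 and 52.7 CPM) and Langerhans-like cells (48.4 and 62.2 CPM), whose intervals overlapped in both libraries, and *H2-Ob* in cluster 8 (104 and 58.1 CPM). *H2-Ob* reached 146 CPM (120.5 to 176) labelled PBS and 116 CPM (92.1 to 144) labelled DTX in dendritic subcluster 2, which raised 7 of 8 type 1 dendritic markers, and 63.6 and 59.0 CPM in subcluster 1, which raised all 7 type 2 markers. *H2-Oa* was instead higher in subcluster 1 (117 and 87.6 CPM) than in subcluster 2 (48.8 and 51.6 CPM), with intervals that did not overlap in either library. In macrophage-like cells *H2-Oa* and *H2-Ob* stood at 1.45 and 2.17 CPM labelled PBS and 1.36 and 1.79 CPM labelled DTX. H2-DO UMIs made up 0.420% (0.284 to 0.599) and 0.631% (0.511 to 0.771) of H2-DO and H2-DM UMIs together in macrophage-like cells, against 4.84% (4.26 to 5.48) and 5.46% (4.92 to 6.05) in dendritic-like cells.

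*H2-DMb2*, the second beta chain gene of H2-DM, had its highest level in dendritic subcluster 4 (489.5 and 399 CPM), one of 2 subclusters in which all 9 mature dendritic markers were raised. Of the UMIs of both beta chain genes, *H2-DMb2* took 67.5% and 54.8% in the other mature dendritic-like subcluster, 3, and 41.6% and 42.5% in subcluster 4. In macrophage-like cells it took 2.05% and 1.38%, and in Langerhans-like cells 26.2% and 25.2%. The genes are close paralogs, and 22.7% of the 50-letter words of *H2-DMb1* transcripts (GENCODE) also occur in *H2-DMb2*, so the split of reads between them is uncertain. Mature dendritic-like subcluster 3 had the lowest class II sum of the dendritic-like subclusters 0 to 4 (36864 and 42277 CPM), with a summed H2-DM level of 409 and 583 CPM against 1538 and 1788 CPM in subcluster 1.

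Among the 6 dendritic subclusters, which were cut from dendritic-like cells and cluster 8 together, the class II sum was lower labelled DTX in 3, higher in 1, and within counting error of equal in 2. The exception in size was subcluster 5, with 32 cells labelled PBS and 46 labelled DTX. *Ctsk*, *Acp5* and *Mmp9*, genes known from osteoclasts and related giant cells, led it together with the proliferation genes *Top2a* and *Stmn1*. Its class II sum was 45538 CPM labelled PBS and 16149 CPM labelled DTX, a log2 ratio of -1.50 (-1.53 to -1.46). *H2-DMa* and *H2-DMb1* had ratios of -1.61 and -1.59, and *Ciita* -1.80 (-2.83 to -0.82). The macrophage list stood at 4499 and 4501 CPM there and the dendritic list at 636 and 160 CPM. The part of that difference in the class II ratio was not tested.

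Fibroblast-like and epithelial-like cells showed the opposite direction at far lower levels. All 6 members that reached 50 UMIs were higher labelled DTX by more than 1 in fibroblast-like cells (median 1.58, 0.12 over all genes), where 2.62% of 11811 genes were. The same held for 6 of 6 in epithelial-like cells (median 1.11, 0.07 over all genes), where 2.58% of 10092 genes were. *Cd74* stood at 103 and 338 CPM in fibroblast-like cells and at 166 and 364 CPM in epithelial-like cells. Thinned to 2000 UMIs, the median fibroblast-like cell held no class II sum UMI in either library, and 0.704% and 2.93% of cells held at least 10. Myeloid RNA, the sum of 10 genes such as *Lyz2*, *Tyrobp* and *C1qa*, was higher labelled DTX in these cells too. It stood at 139.9 and 559 CPM in fibroblast-like cells (log2 ratio 1.99) and at 97.9 and 596 CPM in epithelial-like cells (2.59). Per myeloid UMI, the class II sum was 1.66 and 1.32 in fibroblast-like cells, 3.42 and 1.23 in epithelial-like cells and 1.76 and 0.947 in macrophage-like cells. *Ciita* had 8 and 2 UMIs in all fibroblast-like cells. The part of myeloid RNA in the class II ratio was not tested. The epithelial-like ratio of the class II sum, 1.13, was 0.58 when called doublets were kept and -1.23 in the 201 and 12 cells with at most 2000 genes. The fibroblast-like ratio, 1.66, was 0.05 when called doublets were kept and 2.22 when the highest 8% of doublet scores were left out of both libraries.

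NK- or T-like cells held 558 and 1134 CPM of the class II sum, and 2 of 5 members with 50 UMIs, *H2-Aa* and *H2-Eb1*, were higher labelled DTX by more than 1 (1.24% of 6363 genes were). Myeloid RNA, whose *Ptprc*, *Tyrobp*, *Laptm5* and *Fcer1g* these cells can express themselves, stood at 3570 and 3533 CPM. Only 3 cells in each library held 10 or more thinned class II sum UMIs. Neutrophil-like cells showed the macrophage direction, with 3 of 6 members lower by more than 1 (4.55% of 2876 genes were) and a class II sum of 8754 and 4389 CPM. They were shallow, at medians of 1229 and 1922 UMIs, and their macrophage marker list stood at 5545 and 4554 CPM, whose part was not tested. In endothelial-like cells 1 of 4 members with 50 UMIs, *H2-Ab1*, was higher by more than 1 (1.86% of 4990 genes were). None of 4 was past 1 in mast-like cells, where 17.8% of 4382 genes were in either direction, or in pericyte-like cells, where 4.33% of 5637 genes were.

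**Figure D5:**
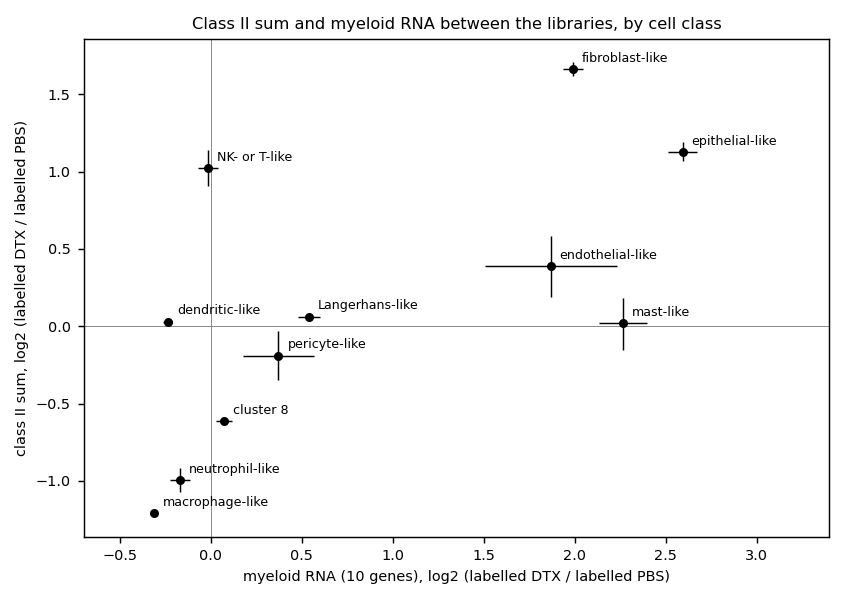
Log2 ratio of the class II sum (vertical) against that of myeloid RNA, the sum of 10 myeloid genes (horizontal), labelled DTX over labelled PBS, for 11 cell classes, with 95% counting intervals. Fibroblast-like and epithelial-like cells were high on both axes, macrophage-like and neutrophil-like cells were below 0 on both, and mast-like cells were high in myeloid RNA only.

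Of the other genes of the pathway tested in macrophage-like cells, *Cd4* alone passed 1. None of the 7 genes of the promoter complex (RFX, NF-Y and *Creb1*) passed 1 in either direction (median 0.26), and neither did any of 6 genes of endosomal processing, 3 of surface turnover, 7 of the interferon gamma input or 9 of the class I pathway, where 5.09% of all genes did. The medians of the last 4 lists were -0.27, 0.01, 0.08 and -0.02. *Ctsb*, a lysosomal protease, had the lowest ratio of these, -0.84 (3801 and 2122 CPM), and *Ctss*, the protease that trims the invariant chain, -0.26. In the interferon gamma list the receptor genes *Ifngr1* and *Ifngr2* had 0.36 and 0.07, and the kinase genes *Jak1* and *Jak2* 0.08 and 0.45. *Irf1* and *Irf8*, transcription factors of the interferon response and of myeloid cells, had -0.65 and -0.61. *Cd4*, which encodes the T cell coreceptor for class II, had 133 UMIs in macrophage-like cells labelled PBS and 48 labelled DTX, 16.0 and 1.59 CPM, and a log2 ratio of -2.72 (-3.06 to -2.36). *Lag3*, a further receptor for class II, had 9 and 21 UMIs there. *Ifng*, the gene for interferon gamma, was found mainly in NK- or T-like cells, with 230 of 254 UMIs labelled PBS and 147 of 186 labelled DTX, at 141 and 103 CPM.

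In dendritic-like cells none of the pathway genes tested passed 1, among them *H2-Eb2*, the remaining class II locus gene counted, with 115 and 136 UMIs and a ratio of -0.18. *Cd83*, which is known to keep class II at the surface, had ratios of 0.41 in dendritic-like cells (2062 and 3688 UMIs) and -0.56 in macrophage-like cells (3472 and 8567 UMIs). Of the interferon gamma list, *Ifngr1* and *Ifngr2* had 0.51 and 0.21 in dendritic-like cells, *Jak1* and *Jak2* -0.01 and 0.07, *Irf1* -0.28 and *Irf8* 0.02. *Lag3* had 24 and 43 UMIs and a ratio of 0.37, and *Cd4* 10 and 5 UMIs.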

How the data were processed

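Live wound cells were profiled with the 10x Genomics 3′ v3 kit. The authors aligned reads to mm10 and counted UMIs per gene with Cell Ranger (6.1.1 per the submitters' processing notes). They deposited 1 matrix of unnormalised UMI counts (genes by barcodes) for each library, which pooled 3 mice. Because 1 library stood for each condition, no test between conditions was possible. Barcodes below 500 detected genes or above 6% mitochondrial UMIs were dropped. Doublets were called with Scrublet (scanpy 1.11.5) in the library labelled PBS (382 of 8326 cells). It called 0 of 7188 labelled DTX, so the highest 8% of scores (575) were removed there. Cells were clustered with Seurat 5.3.0 (R 4.3.3, 2000 variable genes, 30 components) at resolution 0.2, with 12 member or pathway genes removed. Subclusters were cut at resolution 0.5, with 22 such genes removed for the macrophage and 20 for the dendritic subclusters. A cluster was named where at least 3 fixed markers were raised and, if none led it, at least 0.75 of them, a rule set after the clusters were seen.

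UMIs were summed per class and library (CPM), with exact Poisson intervals for levels, conditional binomial intervals for log2 ratios and Clopper-Pearson intervals for shares. A gene was tested with at least 50 UMIs, and called past 1 on the log2 scale. The procedure was tested on simulated data. All 10 members were named, as were pathway genes of fixed lists past 1, the CD4-side, class II locus and interferon gamma genes, *Mrc1*, and the 5 genes most like *H2-Ab1* and *Ciita* (at least 500 UMIs). Members and lists were chosen with earlier results of these data known, and *Ctsb*, *Ctss*, *Cd83* were named after their values were seen. The values of 1 gene of the interferon gamma list are not reported here. Settings tried are given in the closing section. Gene positions came from GENCODE vM21.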

Additional observations from a re-analysis of the deposited data

Results flagged for a closer look

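Class II RNA was also found outside the cells compared. The class II sum was 2890.1 CPM (2789 to 2994) in barcodes with under 500 genes labelled PBS and 2145 CPM labelled DTX, and 4834 and 6837 CPM in barcodes over 6% mitochondrial UMIs, all above the level of 3 UMIs. In 6 classes the class II sum ratio had the opposite sign to that in macrophage-like cells (-1.21), with counting intervals that excluded 0. It was 0.030 in dendritic-like, 0.062 in Langerhans-like, 1.02 in NK- or T-like, 1.66 in fibroblast-like, 0.39 in endothelial-like and 1.13 in epithelial-like cells. With 1 library a condition, this difference between classes was not tested.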

How the results depend on the processing

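No paired analysis was possible because each condition had 1 library, and no replicate could be left out. The values are log2 ratios of the class II sum, DTX over PBS. In macrophage-like cells the ratio was below 0 under all 12 settings tried. It was -1.62 with at most 2000 genes a cell, -1.20 without doublet removal, -1.22 with all variable genes, -1.32 at resolution 0.5, -1.30 in cells thinned to 2000 UMIs, -1.26 with the median of all genes set to 0, -1.23 as a mean of cells' CPM, and -1.42 without macrophage subcluster 5. In dendritic-like cells the ratio turned below 0 without doublet removal (-0.0071), at resolution 0.5 (-0.060) and with the median set to 0 (-0.027). It was 0.32 with at most 2000 genes (41 and 3 cells), 0.055 thinned, 0.052 as a mean of cells' CPM and 0.017 with the highest 8% of doublet scores left out of both libraries. In Langerhans-like cells these 4 settings gave 0.43 (19 and 4 cells), 0.12, 0.14 and -0.0010, and the ratio was 0.019 without doublet removal and 0.030 with the median set to 0. In fibroblast-like cells the 4 settings gave 2.04, 1.38, 1.39 and 2.22, with 0.049 without doublet removal and 1.54 with the median set to 0. In epithelial-like cells they gave -1.23 (201 and 12 cells), 0.93, 0.82 and 1.41, with 0.58 and 1.06. The share of macrophage-like cells with a class II sum UMI was 97.1% labelled PBS and 94.4% labelled DTX without thinning, and 92.3% and 75.9% at 1000 UMIs. The cause of these shifts was not tested. The settings on doublet scores, shared barcodes, cluster 8 and subcluster 5 were chosen after seeing the data. With 1 library a condition, no value carries the spread between mice. *H2-Oa*, *H2-Ob* and *Ciita* were limited by depth outside the dendritic-like cells, Langerhans-like cells and cluster 8. *H2-Ob* was also limited in Langerhans-like cells, with 26 UMIs labelled PBS and 9 labelled DTX.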
